A study of Mus musculus with 8 samples.

Results

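The RNAs described here are the 9 small nucleolar RNAs (snoRNAs) that lie inside the mouse genes Nop58 and Nop56, 4 in Nop58 and 5 in Nop56. They are all the rows of the deposited count tables whose mm10 coordinates fall in windows that hold the host genes, 9 of 5518 rows; the rule reads position only. The study used targeted enrichment sequencing of small RNA (TEsR), in which linker-ligated, decapped and amplified RNA without size selection is captured by hybridization and sequenced on a MiSeq, and standard TruSeq small RNA sequencing. There were 3 sets of libraries. The first was 2 TEsR libraries of mouse embryonic stem (MES) cells, grown without feeders in LIF (MESrep1 and MESrep2). The second was 4 TEsR libraries of mouse embryonic fibroblasts (MEFs) that carried a conditional knock-out of TRF2, a telomere-capping protein, and Rosa26-CreERT2, a tamoxifen-activated Cre at a ubiquitously active locus. The third was 2 TruSeq libraries of such MEFs, titled as induced and named here by their indexes, ATCACG and CGATGT. Induction was with 0.6 µM 4-hydroxytamoxifen for 48 hours. The MEF TEsR columns MEFmmS1, MEFmmS2, MEFpmS1 and MEFpmS2 carry codes, mm and pm, with no explanation in the labels, so induced and uninduced cells could not be told apart. Their SD therefore mixes both states, and no induced-against-uninduced comparison was made.

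The MES libraries held 2785150 and 2676776 counts, the MEF TEsR libraries 3221641 to 3768668, and the TruSeq libraries 8961221 and 8442960. Nothing in the labels says whether libraries of the same group are separate cultures, and the spread that the p-values measure may be technical. Of 14 listed miRNAs of pluripotent cells, 12 had rows. All 12 had counts in both MES libraries (475 and 517 counts-per-million, CPM, summed), all were at 0 in 5 of the 6 MEF libraries, and MEFmmS2 had 5 counts. Of 11 listed miRNAs of fibroblasts and other mesenchymal cells, 9 had rows. They summed to 4.86 to 7.54 CPM in MES, 164 to 1150 CPM in MEF TEsR and 60.8 to 95.4 CPM in TruSeq. Not all 9 had counts: 5 and 3 did in MES, 5 to 7 in each MEF TEsR library, and 8 and 9 in TruSeq. MEFmmS2 had the lowest fibroblast sum of the MEF TEsR libraries and a miRNA share of 1.67%, against 4.96% to 7.54% in the other 3.

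C/D box snoRNAs are short guides that carry a C motif near the 5′ end and a D motif near the 3′ end. They assemble with the proteins 15.5K, Nop56, Nop58 and fibrillarin, and fibrillarin then methylates the 2′ hydroxyl of the ribosomal RNA base that pairs with the fifth guide base before the D box. H/ACA snoRNAs, the other class, guide pseudouridylation with a different set of proteins. In mammals most snoRNAs are processed from introns, so here the genes for a pair of core C/D proteins also carry guide RNAs.

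The reference sequences are shown in the order of the host introns because the guides resemble each other across the locus. In each, capitals mark the C motif (TGATG or GATGA, starting within the first 20 bases) and the last D motif (CTGA, starting within the last 20 bases). The sequences, 5′ to 3′ as DNA, are the GENCODE vM21 transcripts (mm10), and all 9 rows matched one. The 4 of Nop58 and the 4 C/D members of Nop56 are:
Snord70: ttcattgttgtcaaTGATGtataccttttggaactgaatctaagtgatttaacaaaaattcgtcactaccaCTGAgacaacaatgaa
Gm26293: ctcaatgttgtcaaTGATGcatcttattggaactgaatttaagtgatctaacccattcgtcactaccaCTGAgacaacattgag
Gm26287: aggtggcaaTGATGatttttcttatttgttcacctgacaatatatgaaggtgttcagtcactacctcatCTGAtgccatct
Snord11: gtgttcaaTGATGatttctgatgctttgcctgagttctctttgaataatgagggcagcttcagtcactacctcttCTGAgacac
Snord110: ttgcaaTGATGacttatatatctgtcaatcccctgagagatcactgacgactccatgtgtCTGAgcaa
Gm23187: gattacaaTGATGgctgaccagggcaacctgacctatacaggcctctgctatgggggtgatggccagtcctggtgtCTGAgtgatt
Gm23650: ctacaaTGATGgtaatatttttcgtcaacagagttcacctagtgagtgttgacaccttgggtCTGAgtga
Snord57: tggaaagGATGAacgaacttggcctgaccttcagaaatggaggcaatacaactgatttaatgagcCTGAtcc

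The fifth Nop56 member, Gm24451, is 133 bases long and had no such C and D pair. Both motifs were found in 8 of the 9 members, read on the RNA strand, against 359 of the 1498 other snoRNA rows (24.0%) and 341 of the 446 other snoRNA rows of 60 to 100 bases (76.5%). The Nop58 guides form pairs. Snord70 and Gm26293 were identical at 73 of 87 aligned positions (83.9%) and shared an unbroken run of 25 bases, ATTCGTCACTACCACTGAGACAACA, that spans the D motif. Gm26287 and Snord11 were identical at 60 of 90 aligned positions (66.7%) and shared a run of 15 bases, TTCAGTCACTACCTC. In Snord70 and Gm26293 the first 12 bases were an unbroken Watson-Crick complement of the last 12, while the other 7 members had 0 to 4 such pairs. None of the 1498 other snoRNA rows had 12, and 1 had at least 10. Pairs were counted from the annotated ends up to the first base without a Watson-Crick partner, so G-U pairs ended the count. The number therefore depends on how far each annotated row extends past its motifs. The C motif starts at base 15 in Snord70 and Gm26293 and at bases 7 to 10 in the other C/D members.

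Matches to 18S ribosomal RNA placed 5 of the 9 members on 1 stretch. The 18S sequence was the annotated mm10 copy CT010467.1 (chr17:39846353-39848201), read as its reverse complement, with positions counted from 1 at the 5′ end of that read. Snord70 and Gm26293 were complementary to positions 516 to 527 through TTCGTCACTACC, and the fifth base before their D motif lay opposite position 519. Gm26287 and Snord11 were complementary to positions 514 to 524 through GTCACTACCTC, with the fifth base opposite position 516. Gm23650, from the other host, matched positions 521 to 532 through TATTTTTCGTCA, a stretch with no CTGA beside it. Only the longest match of each row was kept. Among the other snoRNA rows, no longest match of at least 11 bases overlapped positions 514 to 532. Snord110 matched positions 1292 to 1303 through ATCTGTCAATCC, which lies at its bases 20 to 31, before an internal CTGA that is not the D motif in capitals. The fifth base before that internal CTGA lay opposite position 1295. Snord57 matched 94 to 110 through AACTGATTTAATGAGCC, with the fifth base before its capitalised D motif opposite position 99. The longest matches of Gm24451 and Gm23187 were 9 and 8 bases. A match of at least 11 bases occurred in 74 of the 1498 other snoRNA rows (4.94%), in 35 of the 446 of 60 to 100 bases (7.85%) and in 43 of the 304 with a count (14.1%). These are matches of letters, not mapped modification sites, and no other ribosomal RNA was searched.

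All 9 members lie on the plus strand, in introns of an annotated transcript of each host (15 exons for Nop58 and 12 for Nop56), and no intron of these transcripts holds more than 1 of them. Nop58 (chr1:59684971-59719044), whose protein sits at the C and D motifs of the particle, has Snord70 (ENSMUSG00000077345, chr1:59691934-59692020) in intron 2 and Gm26293 (ENSMUSG00000077358, chr1:59692509-59692592) in intron 3. Gm26287 (ENSMUSG00000089512, chr1:59704258-59704338) is in intron 8 and Snord11 (ENSMUSG00000089093, chr1:59704790-59704873) in intron 9. Nop56 (chr2:130274430-130279313) has Snord110 (ENSMUSG00000080610, chr2:130275506-130275573) in intron 3 and Gm24451 (ENSMUSG00000065287, chr2:130276237-130276369) in intron 5. Gm23187 (ENSMUSG00000093645, chr2:130277195-130277280), Gm23650 (ENSMUSG00000065289, chr2:130277697-130277766) and Snord57 (ENSMUSG00000065272, chr2:130278016-130278087) are in introns 8, 9 and 10. Other transcripts of the hosts have exons over 5 of the members, most often over Gm23187 (8 of 19 Nop56 transcripts). Over Gm26293 there are exons in 4 of 15 Nop58 transcripts.

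**Figure D1:**
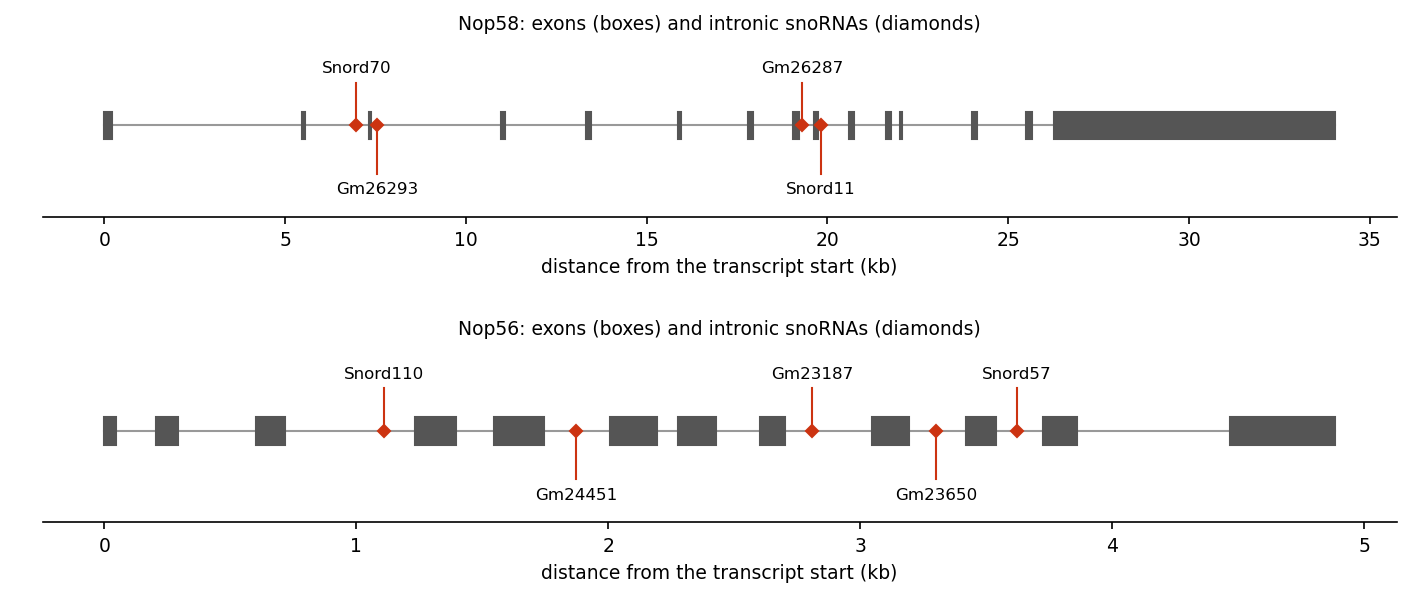
Exons (boxes) and intronic snoRNAs (diamonds) of a Nop58 transcript (top) and a Nop56 transcript (bottom) against the distance from the transcript start in kb. The Nop58 snoRNAs sit in 2 neighbouring pairs of introns (2 and 3, 8 and 9), while those of Nop56 are spread over introns 3 to 10.

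The Nop58 snoRNAs made up a large part of every TEsR library and a small part of the TruSeq libraries. They took 33.3% and 33.5% of the counts in MES. In MEF TEsR they took 42.2% (MEFmmS1), 44.5% (MEFmmS2), 40.3% (MEFpmS1) and 45.8% (MEFpmS2). In TruSeq they took 0.0628% and 0.0759%. The means were 33.4% ± 0.104 (SD, n = 2), 43.2% ± 2.43 (SD, n = 4) and 0.0694% ± 0.00927 (SD, n = 2), and the groups did not overlap. The exact two-sided permutation p was 0.133 for MES against MEF TEsR and for MEF TEsR against TruSeq. That is the smallest p that 2 libraries against 4 can give, and it was 0.152 after Benjamini-Hochberg adjustment over 8 such tests of shares. The exact Clopper-Pearson 95% interval of a library's share was at most 0.0566 percentage points to either side. Such intervals cover counting error only, because the reads carried no molecular identifiers. In libraries of bulk RNA, fewer cells of a type and less RNA per cell cannot be told apart.

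The Nop56 snoRNAs were far scarcer in TEsR, by summed counts, although their host encodes the protein that pairs with Nop58 in the particle. They took 0.108% and 0.111% of the counts in MES. In MEF TEsR they took 0.394% (MEFmmS1), 0.546% (MEFmmS2), 0.192% (MEFpmS1) and 0.335% (MEFpmS2). In TruSeq they took 0.224% and 0.254%. The MES libraries were below all others, while the TruSeq values lay inside the MEF TEsR range. The exact permutation p was 0.133 for MES against MEF TEsR and 0.4 for MEF TEsR against TruSeq (0.4 after adjustment). Counts of the Nop58 rows were 301 to 309 times those of the Nop56 rows in MES and 81.5 to 210 times in MEF TEsR. In TruSeq the order was the other way, with a Nop58 to Nop56 ratio of 0.280 to 0.299.

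**Figure D2:**
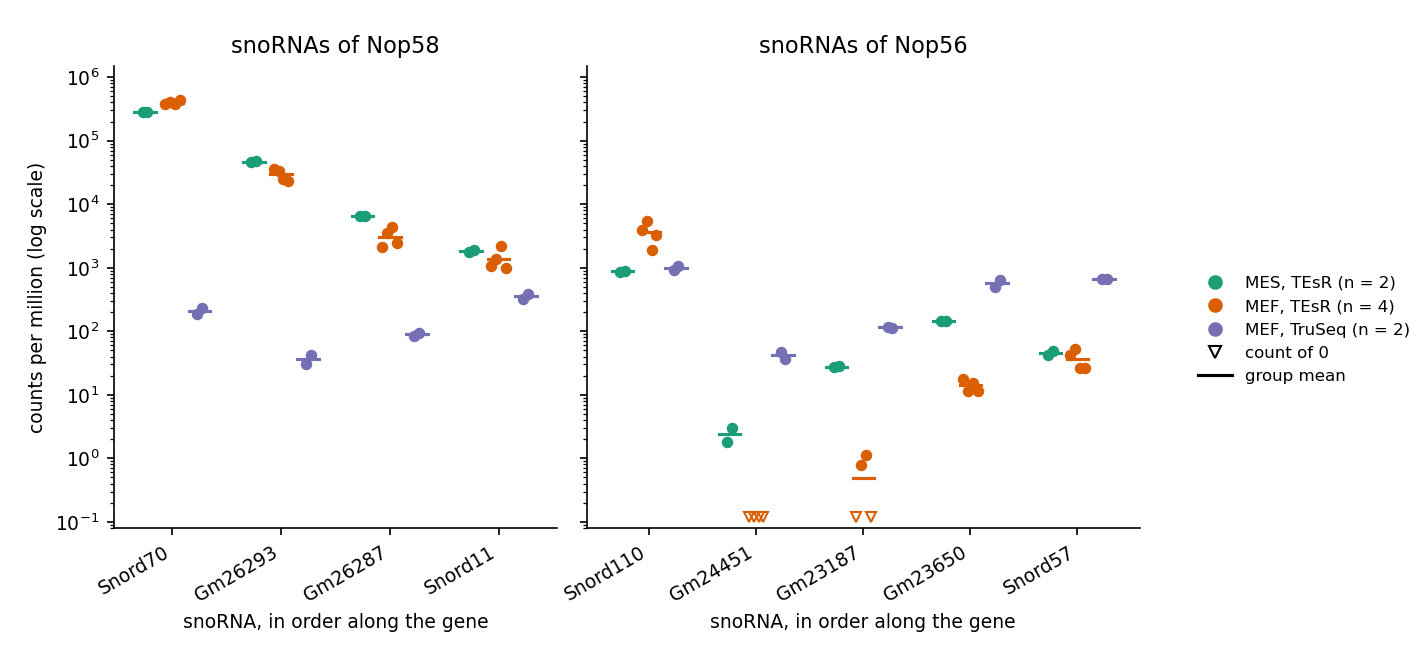
CPM (log axis) of the 4 Nop58 snoRNAs (left) and the 5 Nop56 snoRNAs (right), with 1 point per library, a bar at each group mean, and open triangles for a count of 0. All 4 Nop58 snoRNAs are lowest in the TruSeq libraries, while 4 of the 5 Nop56 snoRNAs are highest there and Snord110 is not.

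Snord70, a C/D guide in intron 2 of Nop58, was the most abundant of the 9 in every TEsR library, by count and per base of row length. It had 776621 and 745245 counts in MES. In MEF TEsR it had 1428189 (MEFmmS1), 1531606 (MEFmmS2), 1314308 (MEFpmS1) and 1388232 (MEFpmS2). In TruSeq it had 1663 and 1998. It ranked first among all rows in MEFpmS2, second in the other 5 TEsR libraries, where Snord68 was first, and 108th in both TruSeq libraries. As a level it was 278627 ± 306 CPM (SD, n = 2) in MES, 397975 ± 26305 CPM (SD, n = 4) in MEF TEsR and 211 ± 36.1 CPM (SD, n = 2) in TruSeq. Every MEF TEsR library was above both MES libraries, and every TruSeq library far below them. CPM are parts of 1 total, so a change in another abundant row moves them. Snord68 took 53.0% and 54.5% of the counts in MES and 35.8% to 42.4% in MEF TEsR. Groups that do not overlap are common in these tables: over all rows tested, MES lay wholly above MEF TEsR in 42.1% and wholly below in 41.4% (83.5% in all), and MEF TEsR lay wholly above TruSeq in 29% and wholly below in 61.4% (90.3% in all).

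Gm26293, the near copy of Snord70 in the next intron, was second to it among the Nop58 members in every TEsR library. In CPM it was higher in MES than in MEF TEsR, the reverse of Snord70. It had 128191 and 128430 counts in MES. In MEF TEsR it had 135211, 126429, 87309 and 75023, in the order MEFmmS1, MEFmmS2, MEFpmS1 and MEFpmS2. In TruSeq it had 278 and 362. Its levels were 47003 ± 1381 CPM (SD, n = 2), 29445 ± 6424 CPM (SD, n = 4) and 36.9 ± 8.38 CPM (SD, n = 2), and the groups did not overlap. The ratio of Snord70 to Gm26293 counts was 5.80 to 6.06 in MES and 5.52 to 5.98 in TruSeq, ranges that overlap. In MEF TEsR the ratio was 10.6 to 18.5, above every MES and TruSeq library, so the counts of the pair were not held at 1 ratio. How reads within their shared run of 25 bases were assigned to the 2 rows is not given. Its effect on this ratio and on the separate counts was not tested.

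Gm26287 and Snord11, the pair complementary to 18S positions 514 to 524, differed from each other more than the first pair did across methods. Gm26287 had 18425 and 17326 counts in MES, 7835, 13200, 15297 and 7943 in MEF TEsR, and 761 and 804 in TruSeq. Snord11 had 4978 and 5020 counts in MES, 3948, 5098, 7647 and 3174 in MEF TEsR, and 2928 and 3247 in TruSeq. In CPM, Gm26287 was at 6544 ± 101 (SD, n = 2), 3099 ± 1011 (SD, n = 4) and 90.1 ± 7.29 (SD, n = 2), and its groups did not overlap. Snord11 was at 1831 ± 62.3 CPM (SD, n = 2), 1390 ± 539 CPM (SD, n = 4) and 356 ± 40.9 CPM (SD, n = 2), and its MES and MEF TEsR libraries overlapped. Gm26287 was 3.45 to 3.70 times Snord11 in MES and 1.98 to 2.59 times in MEF TEsR, but 0.248 to 0.260 times in TruSeq.

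Per base of row length, the order in all 6 TEsR libraries was Snord70, Gm26293, Gm26287, Snord11, the same as their order along the gene. In both TruSeq libraries it was Snord11, Snord70, Gm26287, Gm26293. Snord70 held 83.4% ± 0.350 (SD, n = 2) of the Nop58 counts in MES, 92.1% ± 1.51 (SD, n = 4) in MEF TEsR and 30.4% ± 1.15 (SD, n = 2) in TruSeq, and no groups overlapped (exact permutation p = 0.133 for both comparisons, the smallest possible). Snord11 went from 0.548% ± 0.0169 (SD, n = 2) and 0.327% ± 0.145 (SD, n = 4) in MES and MEF TEsR to 51.3% ± 0.962 (SD, n = 2) in TruSeq.

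**Figure D3:**
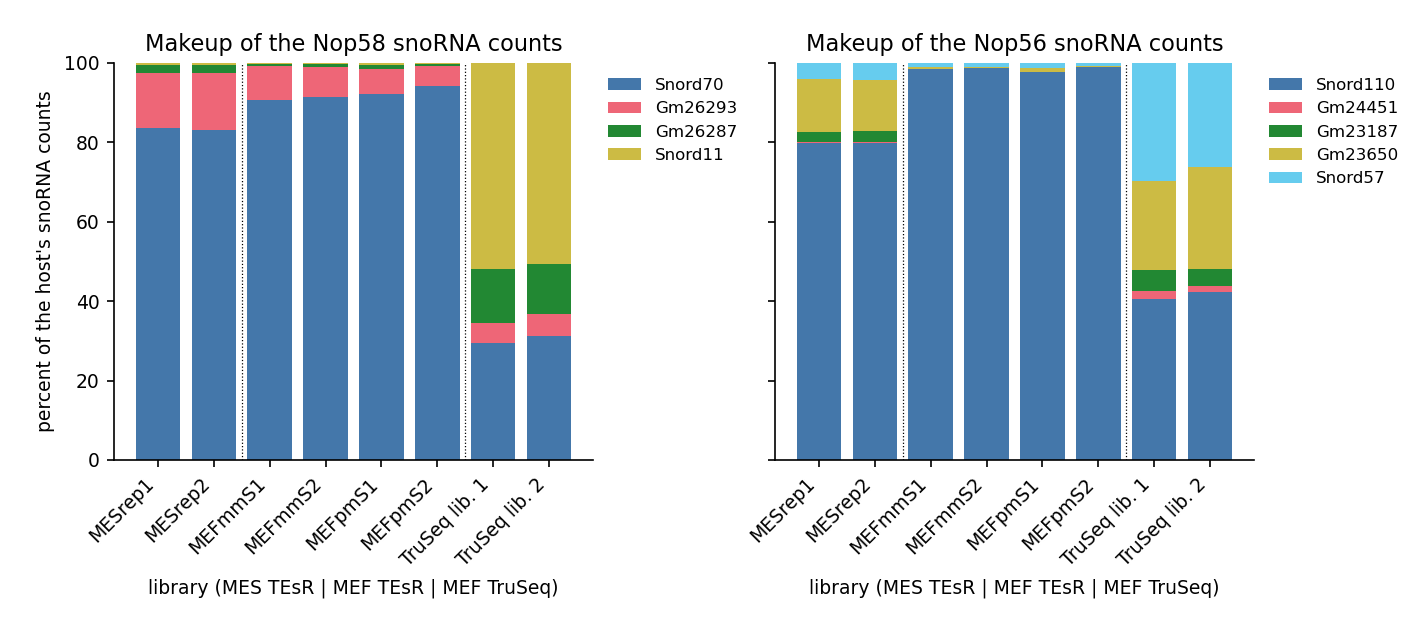
Share of each member in the counts of its host's snoRNAs (percent, stacked) in each library, Nop58 on the left and Nop56 on the right, with dotted lines between the groups. Snord70 and Snord110 fill most of every TEsR bar, while in the TruSeq bars Snord11 is the largest part of Nop58, and Snord110, Snord57 and Gm23650 share most of Nop56.

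Among the Nop56 members, Snord110, a C/D guide in intron 3, led in every library. It had 2400 and 2380 counts in MES, 14483, 20325, 6639 and 10664 in MEF TEsR, and 8146 and 9052 in TruSeq. Its levels were 875 ± 19.4 CPM (SD, n = 2), 3616 ± 1455 CPM (SD, n = 4) and 991 ± 115 CPM (SD, n = 2), so all MEF TEsR libraries were above all others and the other groups were close. It held 79.9% ± 0.0561 (SD, n = 2) of the Nop56 counts in MES, 98.5% ± 0.504 (SD, n = 4) in MEF TEsR and 41.4% ± 1.23 (SD, n = 2) in TruSeq (exact permutation p = 0.133 for both comparisons).

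The other 4 Nop56 members had their highest levels in TruSeq. Gm23650 had 405 and 383 counts in MES, 67, 43, 54 and 37 in MEF TEsR, and 4509 and 5488 in TruSeq. Gm23187 had 75 and 77 counts in MES, 0, 3, 4 and 0 in MEF TEsR, and 1063 and 953 in TruSeq. Mean levels of Gm23650 were 144 ± 1.65 CPM (SD, n = 2), 14.0 ± 3.18 CPM (SD, n = 4) and 577 ± 104 CPM (SD, n = 2). For Gm23650 and Gm23187 the groups did not overlap, with MEF TEsR lowest and TruSeq highest. Snord57, whose 18S match is the longest of the 9 at 17 bases, had 120 and 129 counts in MES, 155, 197, 93 and 85 in MEF TEsR, and 5965 and 5611 in TruSeq. Its MES and MEF TEsR libraries overlapped, at 45.6 ± 3.61 CPM (SD, n = 2) and 36.6 ± 12.7 CPM (SD, n = 4), against 665 ± 0.756 CPM (SD, n = 2) in TruSeq. Gm24451, the 1 member without C and D motifs, had 5 and 8 counts in MES, 0 in all 4 MEF TEsR libraries, and 417 and 309 in TruSeq. With the limit for a count of 0 set at 3 counts, it allows up to 0.931 CPM in the shallowest MEF TEsR library. Per base, Gm23650 was ahead of Snord57 in both MES libraries and in CGATGT, and behind it in the MEF TEsR libraries and ATCACG.

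In the comparison of the cell types by the same method, MES against MEF TEsR, 3 of the 4 Nop58 members were higher in MES. Of the 5 Nop56 members, 4 could be tested, of which 2 were higher and 1 lower in MES. These calls are from edgeR's quasi-likelihood test with trimmed-mean (TMM) scaling and Benjamini-Hochberg adjustment at 0.05. Over all 273 rows tested, 43.6% were called higher in MES and 31.5% lower, so a call by itself is common here. The median log2 fold change of all tested rows was 0.45, and it was -0.38 with scaling by library size only. Filtering kept 8 of the 9 members, and Gm24451 was left out by its low counts. Its mean MES level was 2.57 times the limit of 3 counts in the shallowest MEF TEsR library. That mean rested on 5 and 8 counts, whose counting error the ratio leaves out.

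Gm26287 was higher in MES by 1.87 ± 0.34 (log2 fold change ± SE), with an edgeR adjusted p of 4.89e-04. Gm26293 was higher by 1.43 ± 0.32 (edgeR adjusted p = 0.00219), which was lost without MESrep1 (1.27, edgeR adjusted p = 0.0974). Snord11 was higher by 1.22 ± 0.33 (edgeR adjusted p = 0.00663), but this was lost with library size only (0.40, edgeR adjusted p = 0.374) and without MESrep1 (1.08), MESrep2 (1.14) or MEFmmS1 (0.88), where the edgeR adjusted p was 0.169, 0.0893 and 0.0819. Relative to the median row, these 3 were higher by 1.42, 0.97 and 0.77. Snord70 was not called at 0.23 ± 0.29 (edgeR adjusted p = 0.458), and its direction depended on scaling: with library size only it was lower in MES at -0.51 (edgeR adjusted p = 0.00203), and without MEFmmS1 it was -0.011. No Nop58 member was called lower by edgeR, by its unadjusted p under 0.05 or by DESeq2, whereas with library size only 2 were higher and Snord70 was lower.

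In Nop56 the members went different ways between the cell types. Gm23187 was higher in MES by 6.54 ± 0.79 (edgeR adjusted p = 3.15e-05), but its MEF TEsR side rested on 7 counts in all, and the value was 5.90 without MEFmmS1. Gm23650 was higher in MES by 4.15 ± 0.35 (edgeR adjusted p = 3.66e-06), about 10.3 times in mean CPM. Snord110 was lower in MES at -1.35 ± 0.53 (edgeR adjusted p = 0.0380), a call lost without MESrep1 (-1.55, edgeR adjusted p = 0.178) or MESrep2 (-1.44, edgeR adjusted p = 0.169). Snord57 was not called at 1.04 ± 0.47 (edgeR adjusted p = 0.0634), and without MEFmmS2 it was higher in MES at 1.34 (edgeR adjusted p = 0.00547). Snord110 and Gm23650 lie in introns of the same gene and were called in opposite directions, also by DESeq2 and with library size only.

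Other snoRNAs give the frame for these counts. Of the 142 other snoRNA rows tested, 88 were higher in MES and 20 lower, with a median log2 fold change of 2.78, against medians of 1.32 for the 4 Nop58 rows and 2.60 for the 4 Nop56 rows. Of 66 other rows named Snord, 42 were higher and 9 lower. Among other hosts that carry several snoRNAs, 7 of 10 tested rows of Gas5 and all 5 of Rpl13a were higher in MES. In Snhg1 3 of 8 were higher and 1 lower, and in Eif4a2 1 of 4 was higher and 1 lower. These counts take every row inside a host, so they are not all separate snoRNAs. Snord80 and SNORD77 of Gas5 had the same values (4.10), as did Snora81 and AC154540.1 of Eif4a2 (1.05). Named as miRNAs were mmu-mir-5121 of Rpl13a (1.78) and Mir5117 of Gas5 (-0.35). Ncl, the gene of the nucleolar protein nucleolin, had 3 tested rows, of which Snord82 was higher in MES and an overlapping pair with the same counts was lower. Dkc1, the gene of the H/ACA pseudouridine synthase, had no tested row.

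**Figure D4:**
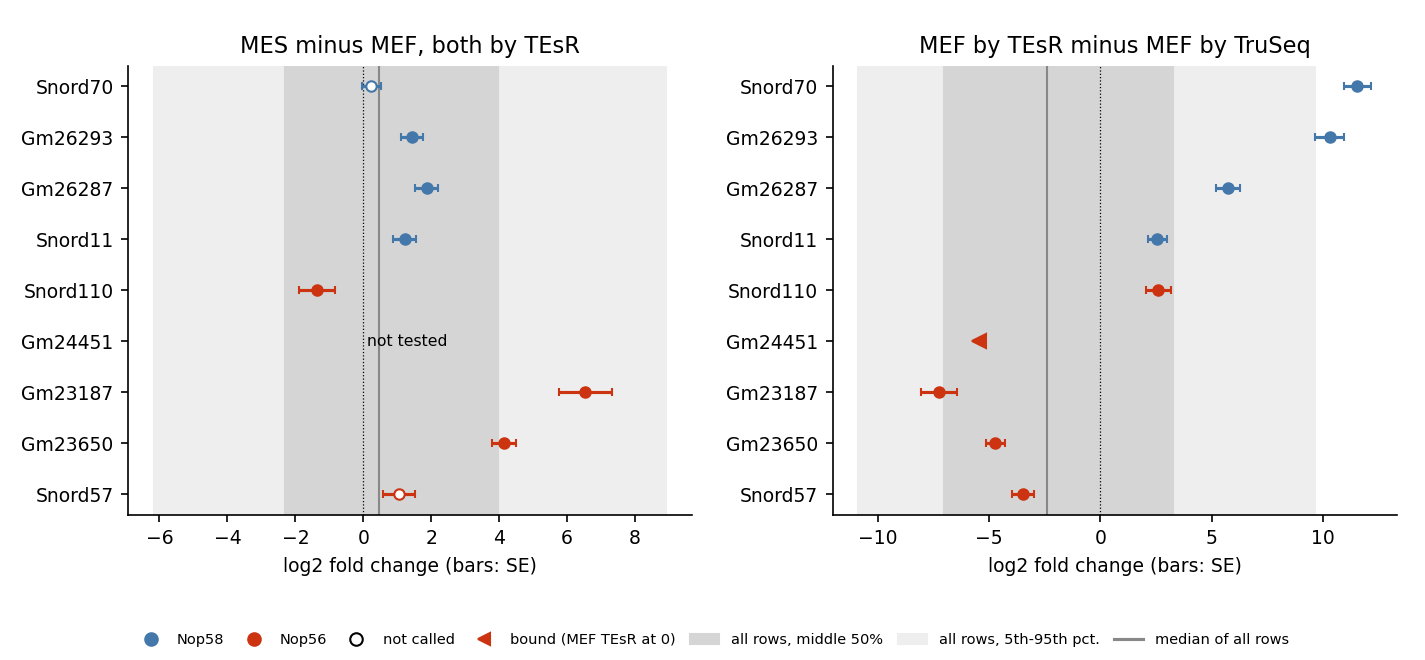
Log2 fold changes with SE bars of the members for MES minus MEF by TEsR (left) and MEF by TEsR minus MEF by TruSeq (right). Grey bands show all tested rows (273 and 352), with a line at their median. Open circles were not called. The triangle for Gm24451 is a bound on its fold difference, from a ratio of CPM without TMM scaling. The Nop58 members lie above 0 on the right and the Nop56 members other than Snord110 below it, while on the left Snord70 lies near 0 and changes sign with library-size scaling.

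Between methods in MEFs, TEsR against TruSeq, the hosts separated. All 4 Nop58 members were higher by TEsR, and 4 of the 5 Nop56 members were lower, with Snord110 the exception, under edgeR and DESeq2 and with library size only. Of all 352 rows tested, 32.4% were called higher by TEsR and 55.7% lower. By the sample titles, the TEsR MEFs include uninduced cells and the TruSeq MEFs do not, although the TruSeq table is named as a control. Ribosomal RNA was removed before TEsR. The sample titles also give MiSeq for TEsR and HiSeq for TruSeq. The TEsR column names carry the tag q10 and the TruSeq column names do not, and whether both sets of counts were filtered alike is not known. Method, instrument, induction, depletion and any difference in filtering therefore cannot be told apart in these values. Which RNAs the TEsR probes target is not stated in the labels.

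Snord70 was higher by TEsR at 11.56 ± 0.61 (log2 fold change ± SE, edgeR adjusted p = 5.71e-09), a 1885-fold difference in mean CPM. Gm26293 was higher at 10.32 ± 0.65 (edgeR adjusted p = 2.10e-08), 797-fold in CPM. The second pair moved less. Gm26287 was higher at 5.73 ± 0.54 (edgeR adjusted p = 6.22e-07), 34.4-fold in CPM, and Snord11 at 2.56 ± 0.43 (edgeR adjusted p = 9.75e-05), 3.91-fold. The size of the difference thus fell from the first to the last Nop58 intron with a snoRNA. The median over all rows was -2.42.

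Snord110 was higher by TEsR at 2.61 ± 0.58 (edgeR adjusted p = 8.49e-04), 3.65-fold in CPM and close to Snord11. Snord57 was lower by TEsR at -3.49 ± 0.50 (edgeR adjusted p = 2.29e-05), 18.2-fold in CPM. Gm23650 was lower at -4.73 ± 0.42 (edgeR adjusted p = 4.02e-07), 41.1-fold in CPM. Gm23187 was lower at -7.27 ± 0.82 (edgeR adjusted p = 2.76e-06), and at -7.91 without MEFpmS1. With 2016 counts in TruSeq against 7 in MEF TEsR, its ratio of pooled CPM was 236, with an exact 95% counting interval from 114 to 588, and it was 414 without MEFpmS1, which holds 4 of the 7 counts. Gm24451 was called lower by edgeR, and its TruSeq level of 41.6 ± 7.03 CPM (SD, n = 2) was at least 44.6-fold above the limit of 3 counts per MEF TEsR library. Each of these 9 calls held without any 1 library.

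For the other snoRNAs in this comparison, 18 of 209 were higher by TEsR and 162 lower, with a median log2 fold change of -4.74, or -3.64 with the 32 rows at 0 in a whole group set at their bound. The Nop56 rows had a median of -4.73 (-4.67 with Gm24451 at its bound) and the Nop58 rows 8.03. Of 73 other rows named Snord, 7 were higher and 53 lower. Counting every row inside a host, 2 of 10 in Gas5 were higher and 7 lower, and in Rpl13a 1 of 5 was higher and 3 lower. The 1 higher row of Rpl13a, mmu-mir-5121 (2.32), and the highest of Gas5, Mir5117 (2.85), are named as miRNAs. In Snhg1 6 of 8 were lower and in Eif4a2 3 of 6. The 3 tested rows of Ncl were 2 higher, the overlapping pair, and Snord82 lower.

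The MES libraries differed from TruSeq in cell type, method and instrument at once, so these ratios carry no test. Mean CPM in MES was 1320 times that in TruSeq for Snord70 and 1272 times for Gm26293, then 72.7 times for Gm26287 and 5.15 times for Snord11. The Nop56 members were all higher in TruSeq than in MES, by 17.4 times for Gm24451, 14.6 for Snord57, 4.16 for Gm23187, 4.00 for Gm23650 and 1.13 for Snord110.

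As a description over the 8 libraries, which fall into 3 groups that share cells and method, the rows outside the hosts most like each leading member were ranked by Pearson correlation of log2(CPM + 0.5) among 229 rows. For Snord70 they were Snord68 (0.995), Mir19a (0.987) and Gm24083 (0.974). Of the same host, its near copy Gm26293 gave 0.992, Gm26287 0.964 and Snord11 0.910. For Snord110 they were Gm25878 (0.925), Mir99a (0.897) and Rnu73b (0.889), whereas Gm23650, Gm23187 and Snord57 of the same host gave -0.861, -0.887 and -0.485.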

How the data were processed

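Small RNA was sequenced from 2 MES and 4 MEF libraries by TEsR and 2 MEF libraries by TruSeq. Per the file headers, the authors deposited raw read counts for annotated small RNAs, not normalized, in 2 tables that list the same 5518 rows. The build mm10 and the tools bedtools 2.25.0, SAMtools 1.2.1, BWA 0.7.12 and cutadapt were used, per the submitters' processing notes. No setting of these tools, strand use in counting included, is given in the sources used here, and the tag q10 in the TEsR column names is not explained. Per the labels' protocols, ribosomal RNA was removed before TEsR. Columns were matched to groups by name. The TruSeq table is named as a control, but its sample titles say induced, and the titles were followed. The plan was to set induced TEsR against TruSeq libraries if the columns named them; they did not, so all 4 MEF TEsR columns were used.

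Members, lists and tests were chosen with earlier results of these data known. All rows of the windows are members, and members with at least 10 counts in any library are named; the rows most like a host's leading member are the 3 with the highest correlation. CPM are counts-per-million of the library total. Differences were tested with edgeR 4.0.16 in R 4.3.3 (quasi-likelihood, robust, TMM, filterByExpr with a minimum count of 10, adjusted p under 0.05), each on the libraries compared. The SE is the fold change over the square root of F. The code was tested on simulated data. Shares were compared by exact permutation in SciPy 1.17.1. Alternatives were DESeq2 1.42.0, library size only, TMM without the hosts and rows over 10%, no filter, 1 fit of all groups, duplicate rows counted once, each library left out, a replicate block, and, chosen after seeing the data, shares per row length. Gene types, introns and sequences are from GENCODE vM21. Of 5518 rows, 5453 were in that annotation, and 30 overlap another row with the same counts, none a member. No library was a repeat of another within sampling noise (chi-square over degrees of freedom 21.9 in MES, 285 to 794 in MEF TEsR and 533 in TruSeq).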

Additional observations from a re-analysis of the deposited data

How the results depend on the processing

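Of 326 alternative values for 29 results, 315 were scored as the same as the main value. For members this meant the same direction and side of the threshold. For shares it meant the same sign only, and for counts of calls a number within a fixed ratio of the main count. All 108 for members in MEF TEsR against TruSeq were the same, and 94 of 104 for members in MES against MEF TEsR. By their looser rules, 113 of 114 for the shares and counts of calls were the same. Snord70 in MES against MEF TEsR reversed to -0.51 with library size only and to -0.011 without MEFmmS1, and ranged from -0.011 to 0.32 with each library left out. Scaling moved the members together: library size only shifted the 8 tested by -0.82 to -0.69 (log2) in MES against MEF TEsR. In MEF TEsR against TruSeq it shifted the members other than Gm24451 by -0.74 to -0.55, and DESeq2 by 0.56 to 0.65. The Nop58 share (MES minus MEF TEsR) reversed from -9.79 to 13.5 percentage points when the 4 rows over 10% of any library were left out. Those rows include Snord70 itself, so this value describes the other 3 members, at 30.5% in MES (SD 2.40, n = 2) and 16.97% in MEF TEsR (SD 4.90, n = 4). Leaving out each library gave 103 to 121 rows higher and 59 to 97 lower in MES, and 96 to 116 higher and 187 to 202 lower by TEsR. With the replicate number as a block, MES against MEF TEsR gave 117 rows higher and 77 lower and changed no member's call. The labels do not say whether libraries with the same number were paired. Differences between numbers 1 and 2 correlated at -0.03 over 273 rows, which cannot settle this with so few libraries. No paired analysis was possible for TruSeq because its columns carry no number. Counts of 0 to 4 in MEF TEsR limit Gm23187 and Gm24451, and 2 libraries against 4 limit every test of a share.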
